A study of Homo sapiens with 5 samples.

Results

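The genes described here are 10 transporters that carry amino acids across the plasma membrane. They are SLC3A2, SLC7A1, SLC7A5, SLC7A6, SLC7A11, SLC1A3, SLC1A4, SLC1A5, SLC38A1 and SLC38A2. They were chosen by symbol, 10 of the 14042 symbols in a table of ribosome footprint counts, and each had 1 row. The choice was made with earlier results of these data known. All 10 passed the filter on low counts. The cells were HAP1, an established near-haploid human line derived from a chronic myeloid leukaemia. The libraries came from wild-type HAP1 cells (n = 2) and from HAP1 cells with a knockout of METTL18 (n = 3), an enzyme that methylates a histidine of the large-subunit ribosomal protein RPL3. The labels name no treatment or time point, and they do not give the position of the mutation, the number of clones or whether the libraries came from separate cultures. The p-values therefore reflect the variation among these 5 libraries alone, and that variation may be technical.

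Most amino acids enter cells through solute carriers that differ in substrate and in what drives them. Exchangers of the SLC7 family swap one amino acid for another, and several of them reach the cell surface only when joined by a disulphide bond to the heavy chain SLC3A2, also called 4F2hc or CD98. Carriers of the SLC1 and SLC38 families use the sodium gradient or exchange to take up acidic and small neutral amino acids, among them glutamine. Dividing cells depend on these carriers for protein synthesis, glutathione and nucleotides, and transcription of many of them is known to respond to amino acid shortage through the factor ATF4.

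Each value is a count of ribosome footprints, the RNA pieces that ribosomes shield from nuclease. A gene's count depends both on how much of its mRNA is present and on how many ribosomes each copy carries, and in a bulk lysate fewer cells with a transcript cannot be told apart from less of it per cell. Library totals were 5302160 and 4887380 counts for the wild type and 16339574 to 17629199 for the knockout, so the knockout was on average 3.33-fold deeper. Levels are CPM scaled by TMM, a factor that corrects for library composition (scaled CPM, mean ± SD). METTL18 itself had 33 and 32 counts in the wild type against 33, 32 and 34 in the knockout, log2 fold change -1.44 (adjusted p = 2e-06, edgeR quasi-likelihood test). Footprints on METTL18 were thus lower but not absent in the libraries labelled knockout. BCR and ABL1, the partners of the fusion that HAP1 cells inherit from their leukaemic origin, were both detected, at a summed 7.75 to 7.87 scaled CPM for the wild type and 12.6 to 13.3 for the knockout. Of 8 blood-cell markers 3 were in the table and summed to at most 0.366 scaled CPM in any library, with CD33 at 0 in all 5. Of 5 epithelial markers 4 were in the table, summing to 142 to 151 scaled CPM for the wild type and 183 to 186 for the knockout. KRT18 made up most of this sum (145 ± 6.13 against 171 ± 1.85 scaled CPM), while CDH1, E-cadherin, had 1 and 0 wild-type counts against 198, 187 and 197 in the knockout. For fibroblasts 3 of 5 markers were in the table, at 16.0 to 17.7 against 23.7 to 26.1 scaled CPM. COL1A1 made up most of that, and COL3A1 had 1 and 0 wild-type counts against 32, 33 and 26. The part of these marker differences in the results on the transporters was not tested.

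The transporters did not move as a block. In the knockout 5 fell (SLC1A4, SLC7A11, SLC7A1, SLC38A1 and SLC7A6), 3 rose (SLC3A2, SLC1A3 and SLC1A5), and SLC7A5 and SLC38A2 did not pass the test. The median of the 10 log2 fold changes was -0.37, beside 0.0161 for all 11335 genes tested. The threshold was an adjusted p under 0.05 in edgeR's quasi-likelihood test with Benjamini-Hochberg adjustment over all genes tested. With it, 74.4% of all genes passed, 37.8% as higher and 36.6% as lower, so 8 of 10 passing is near the background. A fall of at least 2-fold was found for 3 of the 10 and for 14.7% of all genes. The 2-fold limit was chosen after the values were seen. A fall of at least 4-fold was found for 2 of the 10 and for 5.21% of all genes. No rise reached 2-fold, the largest being that of SLC3A2 at 1.945-fold. The 10 were chosen with earlier results of these data known, so these shares are a description and not a test. Knockout and wild-type libraries did not overlap for 8 of the 10, beside 83.5% of all genes tested. With scaling by total counts in place of TMM, which moved the median of all genes to -0.255, 2 of the 10 were higher and 8 were lower, beside 26.3% and 49.4% of all genes tested.

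**Figure D1:**
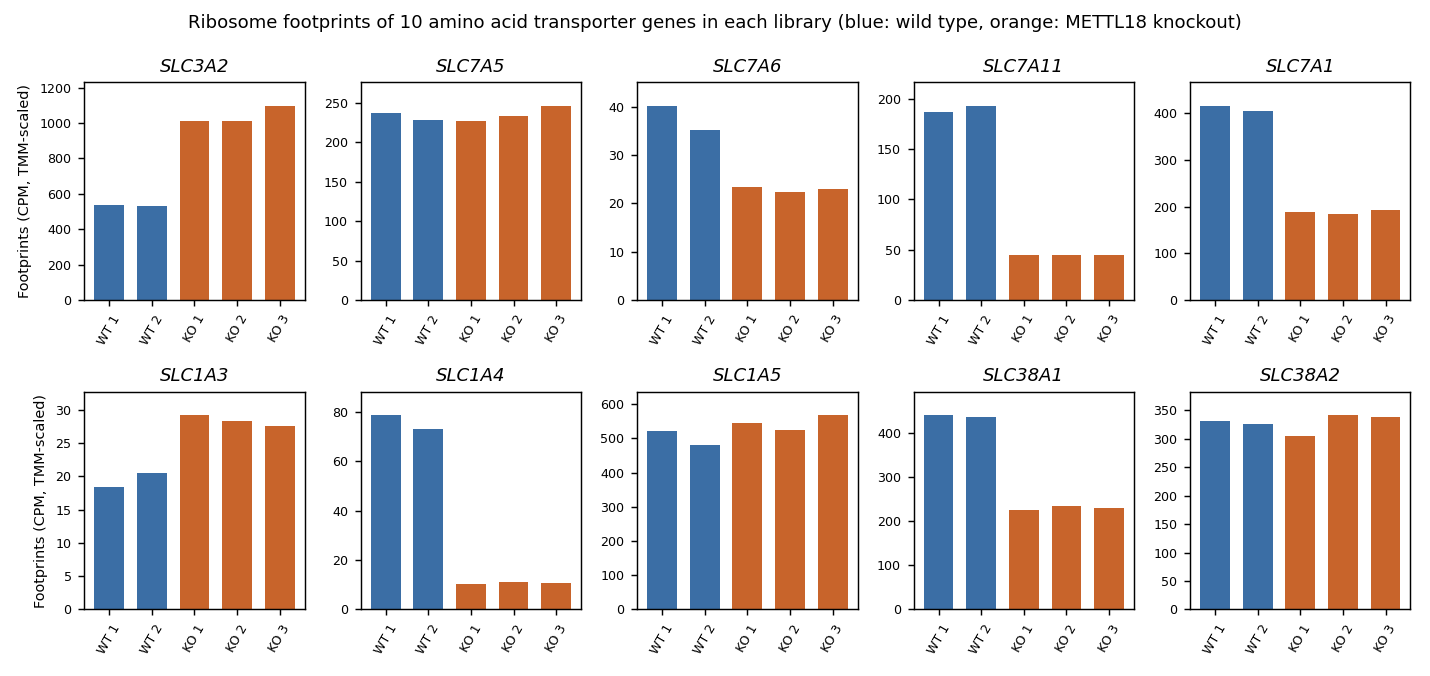
Scaled CPM of ribosome footprints on each transporter gene (vertical axis, starting at 0 and set separately for each gene) in the 2 wild-type libraries (WT, blue) and the 3 METTL18 knockout libraries (KO, orange). The bars of SLC1A4 stand at 72.8 and 78.6 in the wild type and at 10.2 to 11.2 in the knockout, while those of SLC7A5 and SLC38A2 overlap between the groups.

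**Figure D2:**
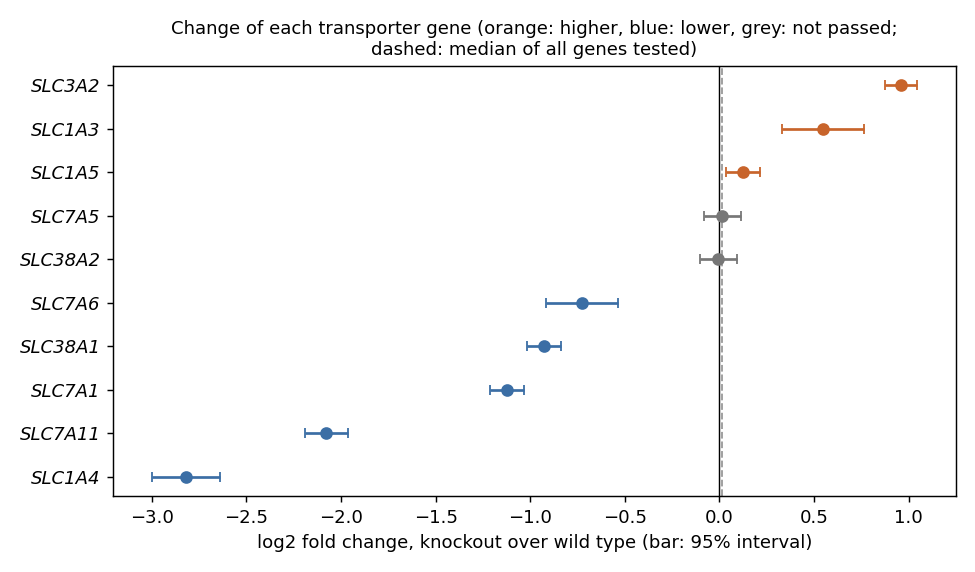
Log2 fold change of each transporter gene, knockout over wild type (horizontal axis), with its 95% interval from the edgeR fit. Points range from -2.82 for SLC1A4 to 0.96 for SLC3A2, on both sides of the median of all genes at 0.0161.

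SLC3A2 is the heavy chain that carries light chains of the SLC7 family to the membrane. Its row (transcript ENST00000377889, hg38 chromosome 11, 62856144 to 62888853, plus strand) stood at 537 and 532 scaled CPM in the wild type and at 1013, 1009 and 1098 in the knockout. All 3 knockout libraries were above both wild-type libraries, with means of 535 ± 3.24 (SD, n = 2) and 1040.0 ± 49.9 scaled CPM (SD, n = 3). The log2 fold change was 0.96 (SE 0.0422, adjusted p = 3.11e-23, edgeR quasi-likelihood test). Of all genes tested 86.1% had a lower log2 fold change, so a rise of this size was not rare in these libraries.

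The 3 light chains in the set did not rise with their heavy chain. SLC7A11 is the light chain of the cystine and glutamate exchanger, which supplies cysteine for glutathione. Its row (ENST00000280612, chromosome 4, 138164097 to 138242349, minus strand) stood at 187 and 193 scaled CPM in the wild type. The knockout libraries held 45.0, 45.2 and 45.0 scaled CPM, well below both wild-type libraries and within 1 scaled CPM of each other. SLC7A11 was 4.22-fold lower, log2 fold change -2.08 (SE 0.0572, adjusted p = 2.1e-30, edgeR quasi-likelihood test), and 4.83% of all genes tested had a lower value.

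SLC7A6 is a light chain that exchanges cationic for neutral amino acids. Its row (ENST00000219343, chromosome 16, 68264530 to 68301819, plus strand) stood at 40.2 and 35.3 scaled CPM in the wild type and at 23.3, 22.4 and 23.0 in the knockout. The groups did not overlap, and the log2 fold change was -0.73 (SE 0.0938, adjusted p = 5.38e-09, edgeR quasi-likelihood test). When a fold above 1.5 was required, this call was lost (adjusted p = 0.0529, edgeR glmTreat).

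SLC7A5, also called LAT1, brings in large neutral amino acids such as leucine. Its row (ENST00000261622, chromosome 16, 87830023 to 87869488, minus strand) stood at 237 and 229 scaled CPM in the wild type and at 227, 233 and 246 in the knockout. The groups overlapped, and the log2 fold change of 0.0153 had a 95% interval from -0.0841 to 0.115 (adjusted p = 0.788, edgeR quasi-likelihood test). With total-count scaling it was lower (-0.26, adjusted p = 1.45e-05, edgeR quasi-likelihood test), close to the shift of the median of all genes. SLC7A5 is also the one member with look-alike sequence: 80.1% of the 28-base windows of its coding sequence occur in no other annotated gene, and the rest are shared with the pseudogenes SLC7A5P1, SLC7A5P2 or SMG1P3. For each of the other 9 transporters 100% of the windows were found in no other gene. No label states how such shared reads were assigned, so the level of SLC7A5 is less certain than the others.

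Per kilobase of coding sequence, the heavy chain and the 3 light chains were footprinted about equally in the wild type and unequally in the knockout. The ratio of SLC3A2 to the sum of SLC7A5, SLC7A6 and SLC7A11 was 1.03 and 1.04 in the wild-type libraries. In the knockout libraries it was 3.06, 3.00 and 3.11. Group means were 1.03 ± 0.00566 (SD, n = 2) and 3.06 ± 0.0586 (SD, n = 3), a 2.96-fold difference. This ratio does not depend on scaling between libraries, since both parts come from the same library. SLC7A11 made up 41.6% ± 1.40 of the light-chain footprints per kilobase for the wild type (SD, n = 2) and 15.0% ± 0.493 for the knockout (SD, n = 3). The share of SLC7A5 went from 50.4% ± 0.752 to 77.5% ± 0.751, and that of SLC7A6 from 8.03% ± 0.649 to 7.42% ± 0.295. With all 6 known partners, adding SLC7A7, SLC7A8 and SLC7A10 after the values were seen, the ratio was 1.02 ± 0.00802 for the wild type and 2.82 ± 0.0518 for the knockout. No test was made on these ratios, because they combine genes whose results were known.

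**Figure D3:**
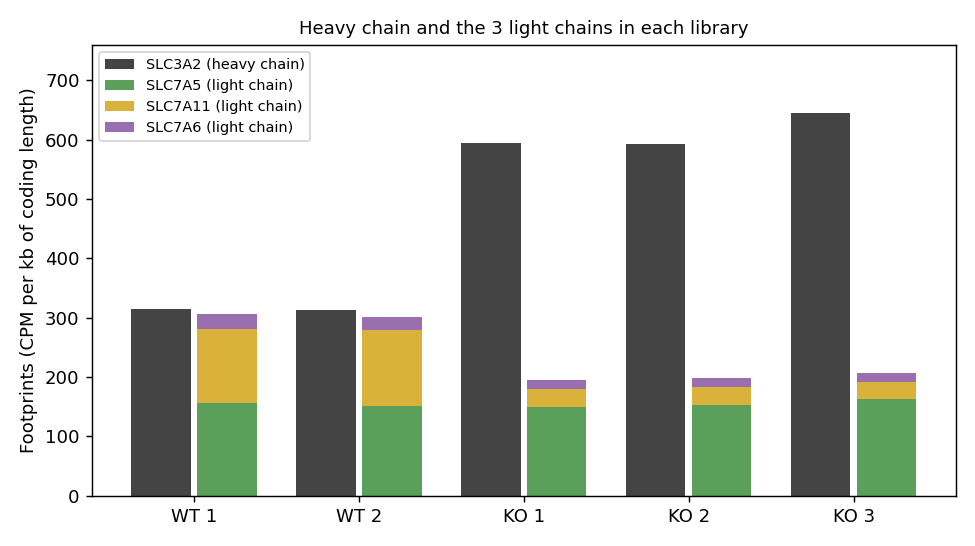
Footprints per kilobase of coding length (scaled CPM per kb, vertical axis from 0) of the heavy chain SLC3A2 (dark bars) and of its 3 light chains stacked on each other (coloured bars) in each library (WT, wild type; KO, METTL18 knockout). The 2 bars of a wild-type library are about equal, at a ratio of 1.03 and 1.04, and in the knockout libraries the dark bar is 3.00 to 3.11 times as tall.

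SLC7A1, also called CAT-1, takes up arginine and lysine and needs no heavy chain. Its row (ENST00000380752, chromosome 13, 29509410 to 29595688, minus strand) stood at 417 and 406 scaled CPM in the wild type and at 189, 185 and 193 in the knockout. Every knockout library was below both wild-type libraries, and the replicates of each group lay close together. SLC7A1 was 2.18-fold lower, log2 fold change -1.12 (SE 0.0447, adjusted p = 9.53e-25, edgeR quasi-likelihood test).

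Among the sodium-coupled SLC1 carriers, 1 fell steeply and 2 rose. SLC1A4, or ASCT1, exchanges alanine, serine, cysteine and threonine. Its row (ENST00000234256, chromosome 2, 64989401 to 65023865, plus strand) had 467 and 398 wild-type counts and 155, 182 and 169 knockout counts at the greater depth. Scaled CPM were 78.6 and 72.8 against 10.2, 11.2 and 10.7, with no overlap. SLC1A4 had the largest fall of the 10, at 7.06-fold, log2 fold change -2.82 (SE 0.0889, adjusted p = 2.36e-28, edgeR quasi-likelihood test), and 2.93% of all genes tested had a lower value.

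SLC1A5, or ASCT2, is closely related to SLC1A4 and is a major route for glutamine. Its row (ENST00000542575, chromosome 19, 46774883 to 46788594, minus strand) stood at 521 and 480 scaled CPM in the wild type and at 546, 525 and 568 in the knockout. The lowest knockout library was just above the highest wild-type library. The log2 fold change was 0.13 (SE 0.0438, adjusted p = 0.0098, edgeR quasi-likelihood test), and it did not hold under every setting. Without wild type replicate 2 it was 0.0638 (adjusted p = 0.364, edgeR quasi-likelihood test), and with total-count scaling SLC1A5 was lower (-0.15, adjusted p = 0.00296, edgeR quasi-likelihood test). The ratio of SLC1A5 to SLC1A4 per kilobase was 6.51 and 6.49 for the wild type and 52.4, 46.2 and 52.1 for the knockout.

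SLC1A3, or EAAT1, takes up glutamate and aspartate and is best known from glia. Its row (ENST00000265113, chromosome 5, 36606355 to 36688334, plus strand) had 109 and 112 wild-type counts, the fewest of the 10. It stood at 18.4 and 20.5 scaled CPM there and at 29.2, 28.3 and 27.5 in the knockout, with no overlap. The log2 fold change was 0.55 (SE 0.107, adjusted p = 1.81e-05, edgeR quasi-likelihood test), a rise that did not pass when a fold above 1.5 was required (adjusted p = 0.686, edgeR glmTreat) and that was smaller with total-count scaling (0.27, adjusted p = 0.0221, edgeR quasi-likelihood test).

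SLC38A1 and SLC38A2 are sodium-coupled carriers of small neutral amino acids, glutamine and alanine among them. SLC38A1 (ENST00000398637, chromosome 12, 46183063 to 46269012, minus strand) stood at 441 and 436 scaled CPM in the wild type and at 225, 235 and 231 in the knockout. The groups were far apart, and SLC38A1 was 1.90-fold lower, log2 fold change -0.93 (SE 0.0438, adjusted p = 3.44e-22, edgeR quasi-likelihood test). SLC38A2 (ENST00000256689, chromosome 12, 46358189 to 46372867, minus strand) stood at 332 and 326 scaled CPM in the wild type and at 304, 342 and 338 in the knockout. Its groups overlapped, with the wild-type values inside the range of the knockout. The log2 fold change of -0.0051 had a 95% interval from -0.103 to 0.0925 (adjusted p = 0.93, edgeR quasi-likelihood test), and with total-count scaling it was -0.28 (adjusted p = 2.85e-06, edgeR quasi-likelihood test). Per kilobase, SLC38A1 was footprinted 1.38 and 1.39 times as much as SLC38A2 for the wild type and 0.767, 0.716 and 0.711 times as much for the knockout.

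The order of levels among the 10 transporters differed between the groups. In scaled CPM per kilobase, the wild type was led by SLC3A2 (314 ± 1.90), SLC1A5 (308 ± 17.6) and SLC38A1 (300.2 ± 2.34) (SD, n = 2), of which each overlapped its neighbour in the order. SLC7A1 (218 ± 3.98) and SLC38A2 (217 ± 2.72) followed and overlapped each other. SLC7A5 (153 ± 4.06), SLC7A11 (127 ± 2.80), SLC1A4 (47.4 ± 2.58), SLC7A6 (24.5 ± 2.26) and SLC1A3 (11.9 ± 0.929) came after, each apart from the next. In the knockout SLC3A2 (610.3 ± 29.3 scaled CPM per kilobase; SD, n = 3) stood alone at the top, followed by SLC1A5 (337 ± 13.1) and SLC38A2 (216 ± 13.6). SLC38A1 (158 ± 3.72) and SLC7A5 (155 ± 6.45) overlapped, and SLC7A1 (100.2 ± 2.12) and SLC7A11 (29.99 ± 0.0822) lay below them. The lowest were SLC1A3 (17.4 ± 0.528), SLC7A6 (14.8 ± 0.310) and SLC1A4 (6.71 ± 0.297). SLC3A2 held 18.2% ± 0.247 of the footprints per kilobase over the 10 genes in wild-type cells and 37.1% ± 0.608 in knockout cells.

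As a share of all counts, the 10 transporters together took 0.315% and 0.306% of the wild-type libraries (95% Wilson intervals 0.310% to 0.319% and 0.301% to 0.310%). They took 0.242%, 0.243% and 0.259% of the knockout libraries (0.240% to 0.245%, 0.241% to 0.246% and 0.257% to 0.261%). These intervals cover counting error only. The group means were 0.248% ± 0.00937 for the knockout (SD, n = 3) and 0.310% ± 0.00648 for the wild type (SD, n = 2). The difference was -0.0619 percentage points, with the knockout at 0.800 of the wild type. A share of counts is not corrected by TMM. With total-count scaling the median log2 fold change of all genes tested was -0.255. A fall on this scale was thus not particular to the transporters.

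Promoters of the transporters were searched for a pair of short elements, because amino acid shortage is known to act through sites for C/EBP and ATF factors, and oxidative stress through antioxidant response elements. A match is a description of the letters, not evidence of a bound site. RefSeq promoters (GRCh38.p14, from 250 bases before to 50 bases after a gene start) were found for 9 of the 10 genes, in 17 windows, with none for SLC7A11. The core of the C/EBP-ATF element, TGATGNAA on either strand, occurred in 6 of the 17 windows, 1 in each of 6 genes, and in 3.62% of all 35116 windows. The 30 bases around each match are shown 5′ to 3′ on the gene's strand, with the match in capitals, so that its place in genes that fell and genes that rose can be compared. No match of one element overlapped a match of the other.
SLC1A4 (chr2:64989381-64989410, plus strand): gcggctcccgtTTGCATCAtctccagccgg
SLC7A1 (chr13:29595663-29595692, minus strand): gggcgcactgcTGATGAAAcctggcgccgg
SLC38A1 (chr12:46266502-46266531, minus strand): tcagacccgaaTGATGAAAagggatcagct
SLC3A2 (chr11:62881719-62881748, plus strand): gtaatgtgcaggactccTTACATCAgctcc
SLC1A5 (chr19:46784893-46784922, minus strand): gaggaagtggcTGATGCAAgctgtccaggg
SLC1A3 (chr5:36596357-36596386, plus strand): caggaaatgacTGATGCAAagcagggttaa

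The matches in SLC1A4 and SLC7A1 lie at the start of the transcript that the table counts, which begins 2 bases after and exactly at the RefSeq start. Both genes fell. The other 4 matches belong to RefSeq starts between 2496 and 25555 bases away from the start of the counted transcript. Those genes moved both ways: SLC38A1 fell, and SLC3A2, SLC1A5 and SLC1A3 rose. SLC7A6, which fell, and SLC7A5 and SLC38A2, which did not pass, had a window but no match. For SLC7A11, which fell, there was no window. Which start of a gene was in use in these cells was not measured, and the name of the counted transcript does not show it. Any part of the matches in these changes was not tested. The core of the antioxidant element, TGACNNNGC on either strand, occurred in 6 of the 17 windows and in 13.3% of all windows, in SLC1A3, SLC3A2, SLC7A1, SLC7A6, SLC7A5 and SLC1A5. The SLC3A2 match (chr11:62881652-62881681, plus strand) is shown as the one in the gene that rose most. It belongs to a RefSeq start 25555 bases from the start of the counted transcript. The antioxidant matches of SLC7A1 and SLC7A6, which fell, belong to starts 0 and 4 bases from their counted ones. For SLC7A5, which did not pass, the distance was 19 bases. For SLC1A3 and SLC1A5, which rose, it was 251 and 1301 bases.
SLC3A2: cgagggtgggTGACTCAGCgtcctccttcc

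Other genes of amino acid uptake moved in both directions as well. Of 22 genes listed as other plasma-membrane amino acid transporters 19 were in the table and 13 were tested. Of the 13 tested, 7 rose and 6 fell, with a median log2 fold change of 0.26 beside 0.0161 for all genes. Those that rose include SLC6A8 (0.33), named after its values were seen, which carries creatine. Of all genes tested 37.8% were higher and 36.6% lower, which is also the background for the lysosomal carriers that follow. SLC6A9, the glycine carrier GlyT1, fell from 52.8 ± 1.11 to 4.70 ± 0.0720 scaled CPM, a log2 fold change of -3.49. SLC1A1, a glutamate carrier that also takes up cysteine, fell by 2.27 on the log2 scale. SLC6A6, the taurine carrier, rose by 1.19, and SLC7A8, another light chain of SLC3A2, rose from 6.98 ± 1.08 to 25.4 ± 2.15 scaled CPM (1.86). Of 7 tested genes listed as lysosomal carriers, 3 fell, none rose and 4 did not pass, with a median of -0.19. Those that fell were MFSD12, which brings cysteine into lysosomes (-0.69), SLC38A7, a glutamine and asparagine carrier (-0.67), and SLC29A3, which carries nucleosides rather than amino acids (-1.40). The call of SLC38A7 was lost without wild type replicate 1 (-0.36, adjusted p = 0.26, edgeR quasi-likelihood test). SLC15A4, a histidine and peptide carrier, did not pass (0.31, adjusted p = 0.0563) but its call changed to higher when METTL18 knockout replicate 2 was left out (0.41, adjusted p = 0.0139, both edgeR quasi-likelihood tests).

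Of 10 measured genes of the amino acid response and of NRF2 control, 7 fell, 1 rose and 2 did not pass, with a median log2 fold change of -0.85. Of all genes tested 36.6% were lower and 37.8% higher, the background for this list and those that follow. CEBPG, a partner of ATF4, fell from 144 ± 9.57 to 39.6 ± 4.09 scaled CPM (-1.87). ATF5 (-2.82) and CEBPB (-2.13), both factors of stress-driven transcription, fell, as did GCN1, which activates the amino acid sensor kinase GCN2 (-0.56). ATF4 and NFE2L2 themselves had no row in the counts used here, so they were not analysed.

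Of 28 measured genes that signal amino acid supply to mTORC1, 14 fell, 5 rose and 9 did not pass, with a median of -0.35. The leucine sensor SESN2 fell from 80.2 ± 3.83 to 18.4 ± 0.576 scaled CPM (-2.12), and its relative SESN1 fell by 2.33 on the log2 scale. The third sestrin, SESN3, named after its values were seen, rose from 17.6 ± 0.663 to 35.8 ± 0.869 scaled CPM (1.02, adjusted p = 1.47e-11, edgeR quasi-likelihood test). The kinase MTOR (-0.96) and the folliculin partner FNIP1 (-1.22) fell as well. Without wild type replicate 1, 3 genes of this list were higher, and with total-count scaling 1 was.

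Genes that use the transported amino acids moved in both directions. Of 12 measured genes of cystine and glutathione use, 6 fell, 4 rose and 2 did not pass, with a median of -0.39. OPLAH, which recycles 5-oxoproline to glutamate, fell by 2.41 on the log2 scale, GPX4, the peroxidase that uses glutathione on lipid peroxides, by 1.14 and CBS, an enzyme of cysteine synthesis, by 0.59. TXNRD1, thioredoxin reductase, rose by 0.69. When a fold above 1.5 was required, 3 genes of this list were higher and 2 lower, beside 17.7% and 18.8% of all genes. Of 14 genes of glutamine, glutamate and aspartate use, 9 fell, 3 rose and 2 did not pass, with a median of -0.42. GFPT1, which uses glutamine to make amino sugars, fell from 652 ± 1.92 to 211 ± 1.13 scaled CPM (-1.63). Asparagine synthetase (ASNS, -1.87), the aspartate aminotransferase GOT1 (-0.68) and the proline enzyme PYCR1 (-0.59) fell too. When a fold above 1.5 was required, 2 genes of this list were higher and 3 lower. These 6 lists held 13, 7, 28, 10, 12 and 14 tested genes and were chosen with earlier results of these data known. Across them 45 genes were lower and 20 higher, beside 36.6% lower and 37.8% higher among all genes tested. With total-count scaling 58 were lower and 11 higher, where 49.4% of all genes were lower and 26.3% higher.

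**Figure D4:**
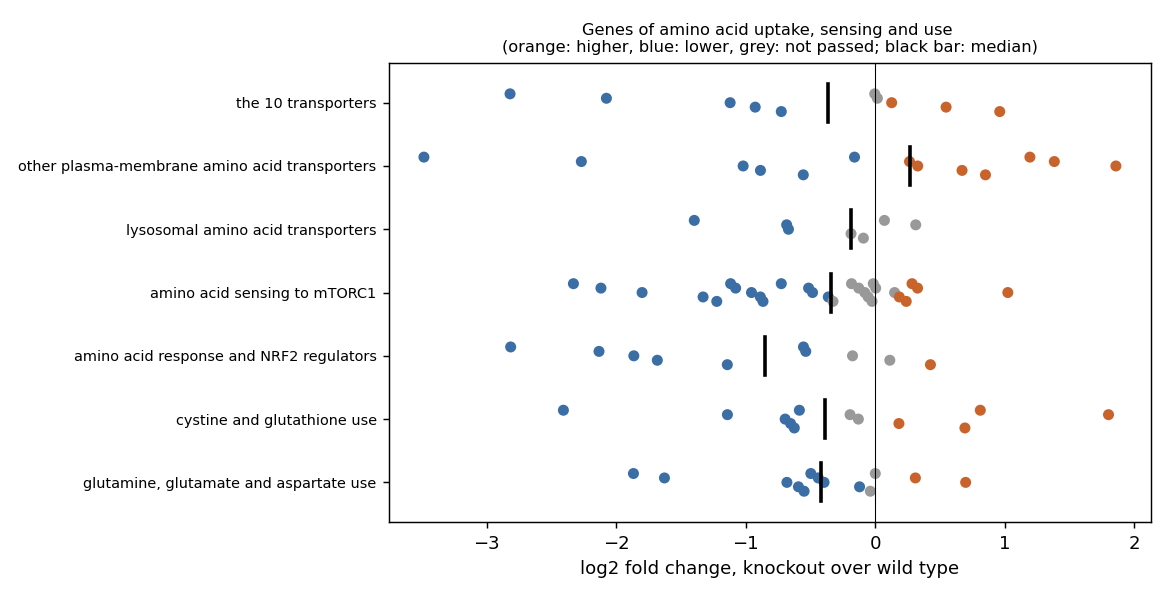
Log2 fold change (horizontal axis, knockout over wild type) of each tested gene of the 10 transporters and of 6 further lists, coloured by the edgeR call, with the median of each list as a black bar. GLS2, named after its values were seen, which had 0 counts in both wild-type libraries and was at least 3.86-fold higher in the knockout (floor of 3 counts, summed over both), is counted in its list's median but not drawn. The transporters spread from -2.82 to 0.96.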

How the data were processed

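Ribosome-protected fragments of 28 to 32 bases were sequenced, per the labels' protocols. The submitters' processing notes name Bowtie and hg38. No version, annotation release, counter or rule for multi-mapping reads is stated in those notes. The deposited table holds raw counts, with 14084 transcript rows and 1 column per library. A symbol with several rows was represented by its most counted one. The test was edgeR 4.0.16 under R 4.3.3, with TMM factors, filterByExpr (minimum count 10, minimum total 15) and a robust quasi-likelihood fit on group alone. Adjusted p-values are Benjamini-Hochberg over all 11335 rows tested. Coordinates and coding lengths came from GENCODE release 29, which matched 99.1% of rows. DESeq2 1.42.0, limma 3.58.1 (voom), other scalings and filters, a required fold of 1.5, thinning, a replicate block and leaving out each library were tried. The members and lists were chosen with earlier results of these data known. All 10 members were named, with up to 4 genes of each other list by smallest adjusted p. The test was also tried on simulated data in which few genes changed, so that trial does not cover a change as broad as here. The wild-type libraries differed by slightly more than counting error (chi-square per degree of freedom 1.14, p = 8.02e-22, over 10241 rows) and were kept as 2 samples. Pairs of knockout libraries, at their greater depth, differed by more (chi-square per degree of freedom 2.78, 3.48 and 2.73).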

Additional observations from a re-analysis of the deposited data

How the results depend on the processing

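Of 140 values of the 10 transporters under 14 alternatives, 125 kept their side of the threshold and their sign. Another 7, of SLC7A5 and SLC38A2, changed sign near 0 and passed in neither. A further 7 changed their side of the threshold. The remaining 1, SLC1A5 with total-count scaling, passed both times with opposite signs. The falls of SLC1A4, SLC7A11, SLC7A1 and SLC38A1 and the rise of SLC3A2 passed under all 14. Total-count scaling, which made 2982 of all genes higher and 5597 lower, turned SLC7A5 (-0.26) and SLC1A5 (-0.15) to lower and made SLC38A2 pass as lower, so that 8 transporters were lower, and across the 6 lists 11 genes were higher. A required fold of 1.5 left 1 transporter higher (SLC3A2), 2011 of all genes higher and 2129 lower, and 10 list genes higher and 25 lower. The call of SLC1A5 was also lost with a mean CPM of at least 10 (0.0663). With the replicate number as a block, 3 transporters were higher and 5 lower, as without it. The difference of replicate 1 minus 2 correlated at 0.0495 between the groups across 7697 genes. The wild-type replicates differed by little more than counting error. This correlation therefore cannot show whether same-numbered libraries share more than a number. Leaving out 1 library gave 2 to 3 transporters higher and 5 lower. It gave 3802 to 4180 genes higher and 3589 to 4104 lower, and 17 to 19 list genes higher and 42 to 45 lower. The heavy to light chain ratio differed 2.93-fold to 2.99-fold between groups and 2.77-fold with all 6 light chains. The share of counts differed by -0.0573 to -0.0673 percentage points. Depth limits SLC1A3 most, with 109 and 112 wild-type counts.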

Other observations

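Besides the transporters described here, 152 other SLC genes were tested, leaving out the mitochondrial SLC25 family, a set chosen after the data were seen. It still holds other amino acid carriers, among them SLC6A9, SLC1A1, SLC6A6 and SLC7A8. Of the 152 genes 63 fell, 45 rose and 44 did not pass, beside 36.6% lower and 37.8% higher among all genes tested. The median log2 fold change of the 152 was -0.0847, beside 0.0161 for all genes. In this set 4 genes had a lower log2 fold change than SLC1A4, 7 a lower one than SLC7A11, and 19 a higher one than SLC3A2.

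SLC38A1 and SLC38A2 lie next to each other on chromosome 12, on the same strand, which was looked up after their values were seen. Their counted transcripts are separated by 89176 bases with 0 annotated protein-coding genes between them (hg38, GENCODE release 29). Their log2 fold changes were -0.93 and -0.0051, and SLC38A4, the next member of the family listed here, had 0 counts in all 5 libraries.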
